A study of Rattus norvegicus with 6 samples.

Results

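Hypoxia response genes were examined in kidney RNA of 6 male Sprague Dawley rats. The 10 genes were set by name (Hif1a, Epas1, Egln1, Egln3, Vegfa, Epo, Adm, Bnip3, Ndrg1 and Pdk1). Of these, 9 were matched among the 17051 genes, and the expression of Egln1 was not analysed here. The rats of the AL group (rats 61, 71 and 88) ate standard laboratory chow freely. The rats of the HD group (rats 64, 67 and 69) ate standard chow powder mixed with amino acids that mimic the composition of hemoglobin, a diet labelled hyperammonemic. The diets were given for 7 days, and the amino acids at 3 g per kg per day. The study's methods give surgery under isoflurane after the diet, with oxygen at induction and air afterwards. The part of the kidney sampled is not stated for the sequencing, and the oxygen tension of the tissue was not analysed here. Nothing pairs a rat of 1 group with a rat of the other.

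Hypoxia-inducible factors (HIF) are transcription factors made of an oxygen-sensitive alpha subunit, such as Hif1a or Epas1 (HIF-2 alpha), and a stable beta subunit, Arnt. In the presence of oxygen, prolyl hydroxylases of the Egln family modify the alpha subunit, the Vhl ubiquitin ligase binds it, and it is degraded, so that the control lies mostly in the protein and not in the mRNA of the alpha subunits. Among the known target genes are secreted factors (Vegfa, Epo, Adm), mitochondrial genes (Bnip3, Pdk1), the stress gene Ndrg1 and Egln3 itself. The kidney has a steep fall of oxygen from cortex to medulla, and its interstitial fibroblasts are the main source of erythropoietin in the adult.

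No hypoxia response gene passed the test between the diets after adjustment over all genes. The nearest was Ndrg1, which was 1.93-fold higher in the HD group with no overlap between the groups. Of the 8 genes with enough counts to test, 6 were higher in the HD group (Hif1a, Epas1, Adm, Bnip3, Ndrg1 and Pdk1) and 2 were lower (Egln3 and Vegfa). Of all 11553 tested genes, 51.3% were higher with HD. The median log2 fold change, HD minus AL throughout, was 0.28 over the 8 genes and 0.0067 over all tested genes. The adjusted threshold of 0.05 (edgeR quasi-likelihood test, Benjamini-Hochberg) was met by 0 of the 8 genes and by 0% of all tested genes. Without adjustment, 1 of the 8 genes (Ndrg1) was below 0.05, against 10.6% of all tested genes. DESeq2 also placed 0 of the 8 past the adjusted threshold, against 1.58% of all tested genes, and gave 2 of the 8 (Ndrg1 and Epas1) below an unadjusted 0.05, against 11.5%. Only Ndrg1 had groups that did not overlap in level, and 14.3% of all tested genes had such groups. The smallest two-sided *P* value that an exact permutation test of 3 against 3 rats allows is 0.1. Below, an unadjusted 0.05 refers to the *P* value of edgeR before adjustment. SE stands for the standard error of the log2 fold change, and SD for the spread of the rats.

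**Figure D1:**
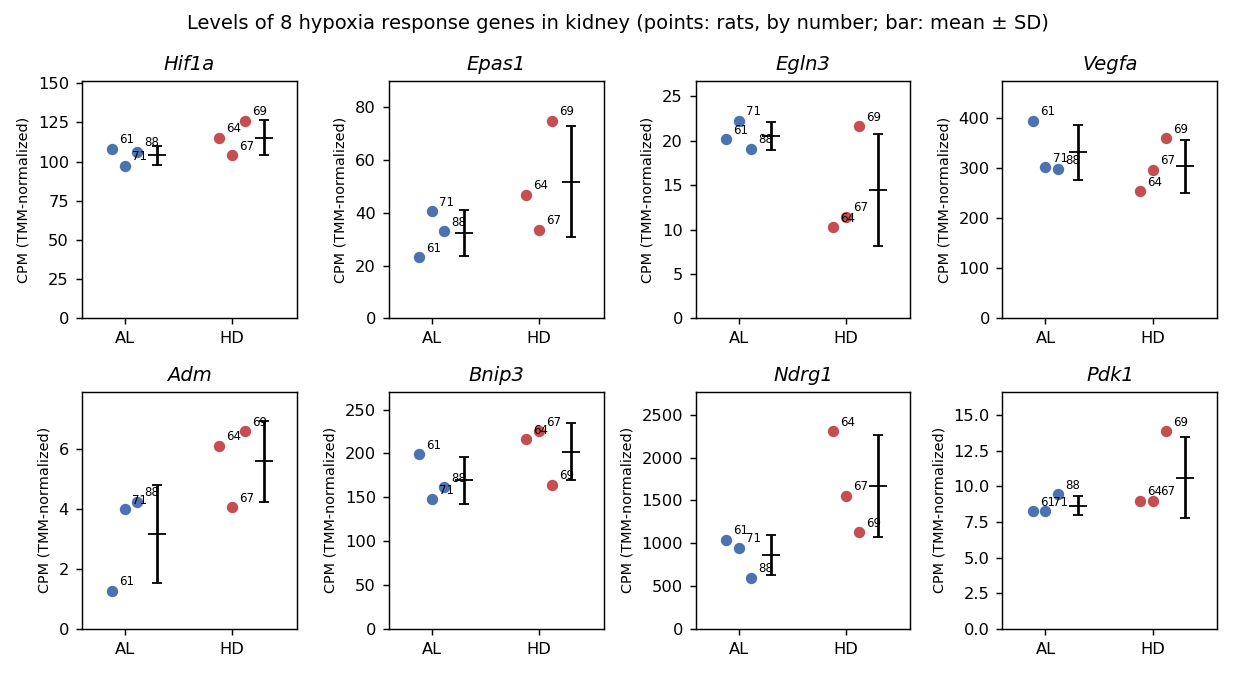
Level of 8 hypoxia response genes in each rat, in TMM-normalized CPM (y axes starting at 0), for the AL and HD groups. Points are rats with their number, and bars are the mean and SD of 3 rats. In Ndrg1 the 3 HD rats lie between 1129 and 2307 CPM, above the 3 AL rats, and in Egln3 rat 69 lies apart from rats 64 and 67.

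The counts of each rat summed to between 12499938 and 30466453, with the most in HD rat 69. Levels between rats are given in CPM, TMM-normalized, which scales a rat's counts by its total and by a factor for composition. The tissue label was checked against cell markers. All 8 markers of the proximal tubule were found in every rat, with a summed level between 10801 and 17093 CPM. Rat 69 differed from rats 64 and 67 in its summed smooth muscle markers, at 253 CPM against 47.0 in rat 64 and 50.4 in rat 67. Of the 5 genes listed as markers of the inner medulla, the part with the least oxygen, all were below an unadjusted 0.05. Whether each of them is particular to that part was not tested. In the HD group 4 were lower and 1 was higher. The lower ones were Slc14a2, Aqp4, Akr1b1 and Slc5a3, with log2 fold changes of -1.42, -1.02, -2.63 and -2.37. Of these 4, only Aqp4 had groups that did not overlap. The higher one was Hsd11b2, at 231 to 254 CPM over the AL rats and 292 to 440 over the HD rats. The summed level was 454 to 945 CPM over the AL rats and 415 to 583 over the HD rats. Hsd11b2 made up much of this sum, which therefore does not follow the 4 lower markers. All 7 leukocyte markers were lower, 4 of them (57.1%) below an unadjusted 0.05. Of 6 markers of the thick ascending limb 0 were below an unadjusted 0.05, and of 6 of the collecting duct 1 higher and 3 lower ones (66.7%) were. Over all tested genes, 10.6% were below an unadjusted 0.05 and 51.3% were higher in the HD group. The part of any of these cells in the results was not tested. Rat 61 had the lowest endothelial sum of the AL group, at 168 CPM against 330 in rat 71 and 341 in rat 88. In such bulk tissue, fewer cells of a type and less RNA per cell cannot be told apart.

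Levels between genes were compared in TPM, which takes transcript length into account. Ndrg1 was the most abundant, with a mean of 670 TPM over the 6 rats and a range from 335 to 1183. Bnip3 followed at 179 TPM and Vegfa at 170 TPM, and their ranges overlapped, with Bnip3 above Vegfa in 2 of 6 rats. Hif1a had a mean of 45.9 TPM (range 40.8 to 54.9) and lay above Epas1 in every rat, with a mean of 24.1 TPM for Epas1, although the ranges of both over the rats overlapped. Egln3 (9.76 TPM) and Pdk1 (9.65 TPM) had overlapping ranges, with Egln3 above Pdk1 in the 3 AL rats and below it in the 3 HD rats, an order seen after the values and not tested. Adm had a mean of 5.03 TPM and was below Pdk1 in every rat. Epo came last, at 0.08 TPM or less in each rat.

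The alpha subunits were both somewhat higher in the HD group, within the spread of the rats. Hif1a, which drives much of the glycolytic response to low oxygen, lies on chromosome 6 of rn5 from 106242730 to 106287704 on the plus strand, with 16 exons. Its level was 108 CPM in rat 61, 97.2 in rat 71 and 106 in rat 88 (AL). Among the HD rats it was 115 CPM in rat 64, 104 in rat 67 and 126 in rat 69. The groups overlapped through rat 67, and Hif1a varied least of the 8 genes relative to its level. The log2 fold change was 0.15 (SE 0.11, edgeR adjusted *P* = 0.716).

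Epas1, the alpha subunit best known for driving erythropoietin, lies on chromosome 6 from 20299603 to 20377837 with 17 exons. Its level was 23.2 CPM in rat 61, 40.6 in rat 71 and 33.1 in AL rat 88, and 46.9 in rat 64, 33.5 in rat 67 and 75.0 in HD rat 69. Rat 69 was highest and rat 61 lowest, while rat 67 lay among the AL rats. Epas1 had a log2 fold change of 0.68 (SE 0.32, edgeR adjusted *P* = 0.503), and the exact permutation test gave a two-sided *P* value of 0.2. The log2 fold change was 0.32 without rat 69 and 0.92 without rat 67. Epas1 is abundant in endothelium. The 6 endothelial markers were all lower in the HD group, by a log2 median of -0.42, beside 51.3% higher among all tested genes. None of them had an unadjusted *P* value below 0.05 in edgeR, against 10.6% of all tested genes. Their sum ranged from 168 to 341 CPM over the AL rats and from 106 to 318 CPM over the HD rats, no marker was at 0 in any rat, and their part in the level of Epas1 was not tested.

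Egln3, the prolyl hydroxylase most strongly induced by HIF in many tissues, pointed the other way. It lies on chromosome 6 from 84592894 to 84618360 on the minus strand, with 5 exons. Its level was 20.2 CPM in rat 61, 22.3 in rat 71 and 19.1 in AL rat 88, and 10.3 in rat 64, 11.4 in rat 67 and 21.7 in HD rat 69. Rats 64 and 67 lay below every AL rat, and rat 69 lay among them. This gave a log2 fold change of -0.49 (SE 0.29, edgeR adjusted *P* = 0.597). Without rat 69 it was -0.91 (adjusted *P* = 0.178), and without rat 64 it was -0.31.

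Of the secreted factors, Vegfa was the most abundant. It encodes the growth factor that maintains the glomerular and peritubular capillaries, and podocytes and tubule cells are known to make it. Its level, summed over 5 transcripts on chromosome 9 from 16232415 to 16247657, was 394 CPM in rat 61, 301 in rat 71 and 298 in rat 88 (AL). Among the HD rats it was 253 CPM in rat 64, 297 in rat 67 and 359 in rat 69. The highest value was that of rat 61 and the lowest that of rat 64, and the groups overlapped. For Vegfa as a whole the log2 fold change was -0.13 (SE 0.18, edgeR adjusted *P* = 0.862). Without rat 61 it turned to 0.02. The podocyte markers stood apart from Vegfa, with 6 of 7 (85.7%) higher in the HD group, against 51.3% of all tested genes. Below an unadjusted 0.05 were 3 of the 7 (42.9%), against 10.6% of all tested genes, and the median log2 fold change was 0.70. Their sum ranged from 58.9 to 131 CPM over the AL rats and from 136 to 296 CPM over the HD rats, and no podocyte marker was at 0. Their part in the level of Vegfa was not tested.

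The 5 Vegfa transcripts have 2 starts, 7424 bases apart. The upstream first exon (16232415 to 16233494) begins 3 transcripts and the downstream one (16239839 to 16240296) begins the other 2. RefSeq places windows for both starts the same 7424 bases apart in build GRCr8. The windows, from 250 bases before to 50 after each start on the plus strand, are shown because the counts of Vegfa can be divided by these starts. They lie at chr9:22452604-22452903 and chr9:22460028-22460327. Neither holds the letters ACGTG or GCGTG, the core of the hypoxia response element, on either strand, so neither has capitals. Sequence beyond these windows was not searched, so elements farther from the starts would be missed.
Vegfa, upstream start: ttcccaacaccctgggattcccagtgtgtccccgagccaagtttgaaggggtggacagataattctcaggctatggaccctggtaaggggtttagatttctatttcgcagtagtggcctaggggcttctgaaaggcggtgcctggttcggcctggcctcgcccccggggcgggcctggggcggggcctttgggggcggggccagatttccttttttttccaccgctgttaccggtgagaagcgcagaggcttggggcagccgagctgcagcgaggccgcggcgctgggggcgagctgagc
Vegfa, downstream start: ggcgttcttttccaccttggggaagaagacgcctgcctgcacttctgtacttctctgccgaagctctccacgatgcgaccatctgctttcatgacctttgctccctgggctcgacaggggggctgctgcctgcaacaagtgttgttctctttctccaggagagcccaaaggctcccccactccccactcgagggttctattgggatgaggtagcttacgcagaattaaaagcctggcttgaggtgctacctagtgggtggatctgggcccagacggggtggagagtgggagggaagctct

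Divided by start, the transcripts leaned in opposite directions. The upstream start took 31.8% of the estimated counts of Vegfa in rat 61, 46.1% in rat 71 and 35.2% in rat 88 (AL). Among the HD rats it took 56.7% in rat 64, 42.7% in rat 67 and 52.7% in rat 69. Rats 64 and 69 were above every AL rat, and rat 67 was below rat 71, so the groups overlapped. The mean share was 37.7% ± 7.46 in the AL rats and 50.7% ± 7.22 in the HD rats (SD, *n* = 3 each), and with RSEM's posterior mean counts it was 37.8% and 50.8%. A fit of both starts as separate features, added after these shares had been seen, gave a log2 fold change of 0.32 for the upstream start (SE 0.18, edgeR adjusted *P* = 0.587). For the downstream start it gave -0.47 (SE 0.24, edgeR adjusted *P* = 0.535). The difference between the starts was not tested. The reads were single-end, the transcripts share most of their exons, and RSEM divides shared reads by estimation.

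**Figure D2:**
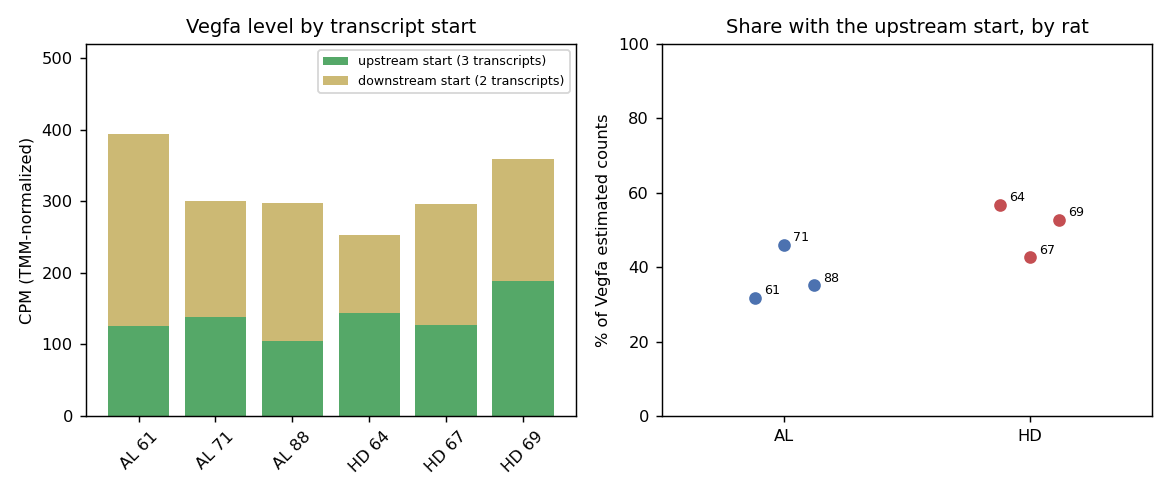
Left, Vegfa level of each rat in TMM-normalized CPM, divided into transcripts with the upstream start and with the downstream start. Right, the share of Vegfa estimated counts with the upstream start in each rat, in percent, which lies between 31.8% and 46.1% in the AL group and between 42.7% and 56.7% in the HD group.

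The transcripts also differ in an alternative exon of 72 bases (chromosome 9 from 16242264 to 16242335) and another of 132 bases (16243488 to 16243619), which belong to the part of the gene that encodes heparin-binding stretches of the protein. The only transcript with neither exon took 11.3% ± 2.80 of the Vegfa TPM over the AL rats and 12.9% ± 2.14 over the HD rats (SD, *n* = 3 each). Both transcripts with the shorter exon together took 35.6% ± 2.64 and 33.1% ± 2.46 (SD, *n* = 3 each). These shares overlapped between the groups.

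Epo, the hormone of red cell production, was at the limit of detection. Its 5 exons lie on chromosome 12 from 24291481 to 24294921. The count was 1 in AL rat 88 and 1 in HD rat 69, and 0 in the other 4 rats. In those 4 rats a count of 0 allows up to 3 counts, which correspond to between 0.150 CPM in rat 67 and 0.255 CPM in rat 64, for counting error alone. Epo was not tested, and no difference was detectable at this depth. The markers of interstitial fibroblasts and pericytes were present in every rat, with a sum of 242 to 481 CPM over the AL rats and 268 to 296 CPM over the HD rats. Of these 7 markers, 5 were lower in the HD group and 2 higher, beside 51.3% higher among all tested genes. Below an unadjusted 0.05 were 3 of the lower ones, or 42.9% of the 7 against 10.6% of all tested genes. Nt5e, 1 of the 2 higher ones, was the largest part of the sum in every HD rat. It was at 82.7 to 115 CPM over the AL rats and 97.5 to 162 CPM over the HD rats. Whether Nt5e is particular to these cells in the kidney was not tested.

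Adm encodes adrenomedullin, a vasodilator peptide, and lies on chromosome 1 from 182433109 to 182435280. It was at 1.27 CPM in rat 61, 3.99 in rat 71 and 4.24 in AL rat 88, and at 6.11 in rat 64, 4.05 in rat 67 and 6.59 in HD rat 69. Rats 64 and 69 were above the AL group and rat 67 lay within it. Rat 61, with an estimated count of 16, was the lowest. Adm had a log2 fold change of 0.81 (SE 0.45, edgeR adjusted *P* = 0.584), and 0.44 without rat 61.

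Bnip3 encodes an outer membrane protein that takes part in mitophagy, and lies on chromosome 1 from 218174697 to 218191883 on the minus strand. It was at 199 CPM in rat 61, 148 in rat 71 and 161 in AL rat 88, and at 216 in rat 64, 225 in rat 67 and 165 in HD rat 69. Rats 64 and 67 were above every AL rat, and rat 69 lay within the AL group. Bnip3 had a log2 fold change of 0.25 (SE 0.17, edgeR adjusted *P* = 0.653). Over the fits that each left out a rat it ranged from 0.16 to 0.39, with 0.38 without rat 61 and 0.39 without rat 69.

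Pdk1 encodes a kinase that inhibits pyruvate dehydrogenase and so holds pyruvate back from the citric acid cycle. It lies on chromosome 3 from 65019116 to 65046275, with 11 exons. Its level was 8.26 CPM in rat 61, 8.26 in rat 71 and 9.46 in AL rat 88, and 9.0 in rat 64, 8.99 in rat 67 and 13.9 in HD rat 69. Only rat 69 was above the AL group. Pdk1 had a log2 fold change of 0.30 (SE 0.23, edgeR adjusted *P* = 0.711), and it dropped to 0.06 without rat 69.

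The core letters of the hypoxia response element were looked for in the RefSeq windows of 300 bases at the starts of these genes (build GRCr8). The letters searched were ACGTG and GCGTG on both strands, and the E-box letters CACGTG hold ACGTG on each strand. Elements outside the windows were not looked for. Windows were matched for 9 of the 10 genes, all but Ndrg1. Of the 10 windows, 5 held a match (Hif1a, Egln1, Epo, Bnip3 and Pdk1), against 41.6% of all 33469 windows. The windows of Bnip3 and Pdk1 held 4 matches each, which 3.46% of all windows reached or passed. In Bnip3 the matches began between 108 and 90 bases before the start. In Pdk1 they began 131 and 54 bases before it and 21 and 30 bases after it. These windows are shown because they hold the most matches, which are in capitals. Bnip3 lies at chr1:203154913-203155212 on the minus strand and Pdk1 at chr3:77113264-77113563 on the plus strand.
Bnip3: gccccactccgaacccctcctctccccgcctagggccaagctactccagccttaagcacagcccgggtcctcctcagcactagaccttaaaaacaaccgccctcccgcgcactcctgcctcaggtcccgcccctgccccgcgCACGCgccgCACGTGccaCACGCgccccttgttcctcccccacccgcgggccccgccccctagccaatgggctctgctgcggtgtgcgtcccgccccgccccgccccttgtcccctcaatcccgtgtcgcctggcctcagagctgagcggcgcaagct
Pdk1: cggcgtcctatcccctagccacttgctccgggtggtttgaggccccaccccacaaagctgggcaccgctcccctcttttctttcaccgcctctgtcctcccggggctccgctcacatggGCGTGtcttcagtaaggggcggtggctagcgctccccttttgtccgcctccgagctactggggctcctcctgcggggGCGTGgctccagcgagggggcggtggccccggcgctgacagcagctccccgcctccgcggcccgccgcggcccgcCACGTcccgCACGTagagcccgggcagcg

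Ndrg1, a stress gene of epithelial cells that HIF is known to induce, had the clearest difference. It lies on chromosome 7 of rn5 from 107683924 to 107725300 on the minus strand, with 16 exons. Its level was 1042 CPM in rat 61, 947 in rat 71 and 598 in rat 88 (AL). Among the HD rats it was 2307 CPM in rat 64, 1555 in rat 67 and 1129 in rat 69. Every HD rat was above every AL rat, by a narrow margin between rats 69 and 61. Group means were 862 ± 234 (AL) and 1664 ± 597 CPM (HD), with SD over 3 rats each, and the two-sided exact permutation test gave *P* = 0.1, the smallest it can give. On the log2 scale the difference was 0.95 (SE 0.31, edgeR adjusted *P* = 0.406). With DESeq2 the adjusted *P* value came to 0.0643. Over the 6 fits that each left out a rat, the log2 fold change ranged from 0.64 without rat 64 to 1.17 without rat 69, and its unadjusted *P* value was above 0.05 without rat 64 and without rat 88.

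The summed markers of the proximal tubule, the segment that reabsorbs most of the filtrate, had the order of the rats that Ndrg1 had. So did 2 of the 8 markers taken singly (Slc34a1 and Slc22a6). This order was looked for after the values had been seen, and 54 tested genes besides Ndrg1 had it. Of 8 markers 7 (87.5%) were higher in the HD group, against 51.3% of all tested genes. Below an unadjusted 0.05 were 3 of the 8 (37.5%), against 10.6% of all tested genes, and the median log2 fold change was 0.49. Their summed level was 13126 CPM in rat 61, 11764 in rat 71 and 10801 in rat 88 (AL). Among the HD rats it was 17093 in rat 64, 15531 in rat 67 and 14088 in rat 69. In Ndrg1 and in this sum, the order runs from rat 64 down through rats 67, 69, 61 and 71 to rat 88. The part of these cells in the difference of Ndrg1 was not tested.

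Of the relatives of Ndrg1, which share a protein fold with it, Ndrg4 was lower in the HD group and the others lay close to 0. Ndrg4 was at 74.7, 84.3 and 81.5 CPM in AL rats 61, 71 and 88 and at 16.0, 26.1 and 56.8 CPM in HD rats 64, 67 and 69. Its groups did not overlap, with a log2 fold change of -1.27 (SE 0.40, edgeR adjusted *P* = 0.406). Ndrg2 had a log2 fold change of 0.05 (SE 0.33) and Ndrg3 of 0.02 (SE 0.15), and both were below 0 when scaled by library size alone.

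**Figure D3:**
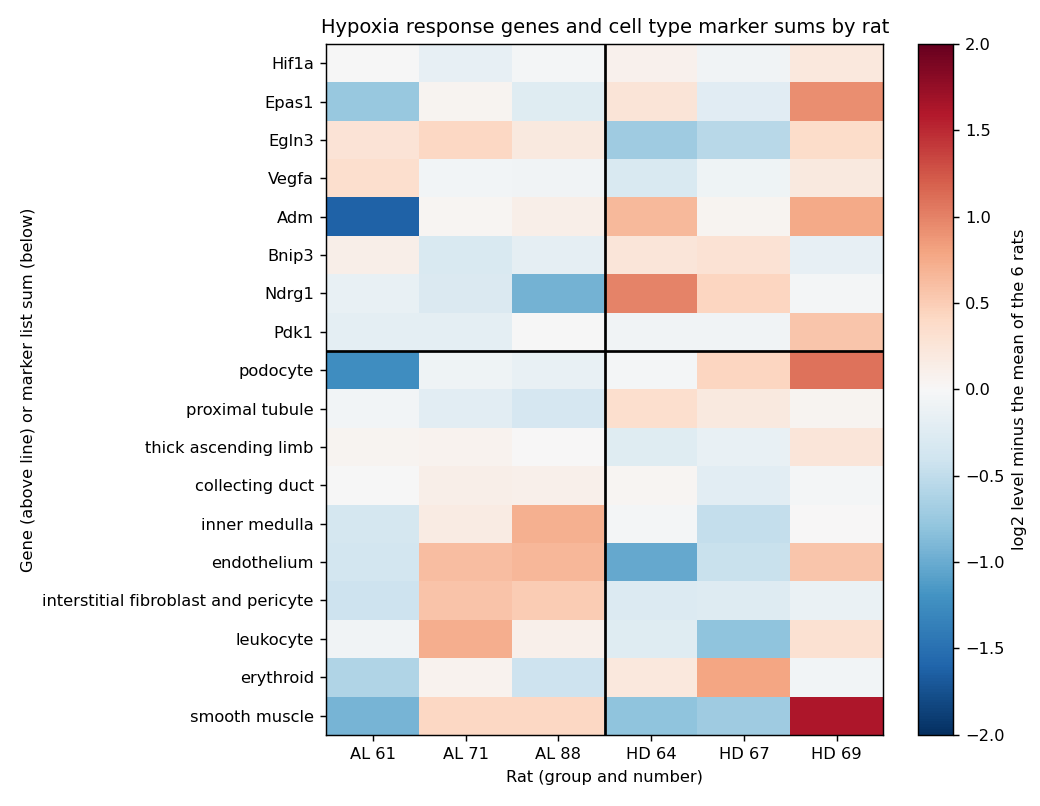
Level of 8 hypoxia response genes (above the line) and summed level of cell type markers (below) in each rat, on a log2 scale as the difference from the mean of the 6 rats. Ndrg1 and the proximal tubule sum share the order of the rats, from rat 64 down to rat 88, which was looked for after the values had been seen. Rat 69 has the highest smooth muscle sum at 253 CPM.

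The rest of the pathway was taken from 6 lists with 99 genes, of which 91 were tested. None passed the adjusted threshold in edgeR. Below an unadjusted 0.05 there were 11 genes, 5 higher and 6 lower in the HD group, or 12.1% against 10.6% of all tested genes. Without rat 61 there were 20 such genes and without rat 69 there were 18, against 6 without rat 88 and 7 each without rats 64 and 67. In the same fits the count over all tested genes was 1722 without rat 61, 1793 without rat 69, 605 without rat 88, 640 without rat 64 and 960 without rat 67. Counted without a threshold, 46 were higher and 45 lower.

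The oxygen sensors and partners of HIF were close to level between the diets. Of 13 tested genes 7 (53.8%) were higher in the HD rats and 6 lower, beside 51.3% higher among all tested genes. Their median log2 fold change was 0.04, and none was below an unadjusted 0.05, against 10.6% of all tested genes. Groups that did not overlap were found in 15.4% of the 13 genes, against 14.3% of all tested genes. The genes with the smallest *P* values were Crebbp, Hif1an and Siah2. The groups of Crebbp, a coactivator of HIF, did not overlap, with a narrow margin between 56.8 CPM in AL rat 88 and 56.5 CPM in HD rat 67. Its log2 fold change was -0.29 (SE 0.13). Hif1an, an asparaginyl hydroxylase that blocks coactivator binding, had 0.35 (SE 0.21), also without overlap, at 5.07 ± 0.607 and 6.49 ± 0.561 CPM (SD, *n* = 3 each). Siah2, a ubiquitin ligase that acts on the prolyl hydroxylases, had 0.37 (SE 0.30).

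Of the glycolytic targets of HIF, 11 of 17 tested genes (64.7%) were higher in the HD group, against 51.3% of all tested genes, and the log2 median was 0.11. Scaling by library size alone gave a median of 0.04, while that of all tested genes moved to -0.074. Below an unadjusted 0.05, 2 genes were found, both higher, or 11.8% against 10.6% of all tested genes. Pgk1, a phosphoglycerate kinase, was at 457 ± 49.9 CPM over the AL rats and 557 ± 10.8 over the HD rats (SD, *n* = 3 each), and its groups did not overlap. Its log2 fold change was 0.29 (SE 0.12, edgeR adjusted *P* = 0.468). Pfkfb4, which sets the level of an activator of glycolysis, had 0.55 (SE 0.23, edgeR adjusted *P* = 0.466), and Hk1, a hexokinase, had 0.32 (SE 0.16, edgeR adjusted *P* = 0.535).

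Of the other targets of HIF, 13 of 36 tested genes (36.1%) were higher and 23 lower, and the log2 median was -0.09, beside 51.3% higher among all tested genes. Below an unadjusted 0.05, 1 was higher and 5 were lower, or 16.7% against 10.6% of all tested genes. The higher gene was Ak4, a mitochondrial adenylate kinase. Its level was 41.1, 57.1 and 35.9 CPM in AL rats 61, 71 and 88 and 124, 73.0 and 91.4 CPM in HD rats 64, 67 and 69. The groups did not overlap, and the log2 fold change of 1.1 (SE 0.24, edgeR adjusted *P* = 0.368) had an adjusted *P* value of 0.00438 in DESeq2. Cp, the copper carrier ceruloplasmin, had a log2 fold change of -1.83 (SE 0.52, edgeR adjusted *P* = 0.398 and DESeq2 adjusted *P* = 0.0104). It was at 20.3 CPM in rat 61 against 86.8 in rat 71 and 78.4 in rat 88, so that the AL group overlapped the HD group, which spread from 11.0 to 22.6 CPM. Plod2, a collagen lysyl hydroxylase, was lower in every HD rat, with a log2 fold change of -0.94 (SE 0.30, edgeR adjusted *P* = 0.406). Of the 7 fibroblast and pericyte markers above 5 were lower and 2 higher. Their summed levels, in which Nt5e was the largest part in every HD rat, overlapped between the groups. The part of these cells in the levels of Cp and Plod2 was not tested.

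Receptors and relatives of Vegfa, Adm and Epo held 0 of 12 genes below an unadjusted 0.05, against 10.6% of all tested genes. Of the 12, 5 (41.7%) were higher and 7 lower, beside 51.3% higher among all tested genes. The smallest *P* values were those of Nrp2, a coreceptor of the Vegf family, with a log2 fold change of -1.53 (SE 0.94), and of Calcrl, the adrenomedullin receptor, with -1.06 (SE 0.66). Adm2, which encodes a peptide related to adrenomedullin, had 0.28 (SE 0.23). In Nrp2 (0.318 CPM) and Calcrl (0.953 CPM), rat 61 of the AL group lay with rats 64 and 67 at the low end.

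Of the pyruvate dehydrogenase complex and its regulators, 8 of 10 genes (80%) were higher in the HD group, against 51.3% of all tested genes. The log2 median of the list was 0.19, or 0.10 when scaled by library size alone. Below an unadjusted 0.05, 2 were higher and 0 were lower, or 20% against 10.6% of all tested genes. Pdk2, a kinase of the same family as Pdk1, was at 265, 256 and 253 CPM in AL rats 61, 71 and 88. It was at 360, 336 and 315 CPM in HD rats 64, 67 and 69, with no overlap. Pdk2 had a log2 fold change of 0.39 (SE 0.11, edgeR adjusted *P* = 0.398 and DESeq2 adjusted *P* = 0.0488). Dlat, a subunit of the complex, had 0.28 (SE 0.12, edgeR adjusted *P* = 0.466) without overlap, and Dld, another subunit, had 0.31 (SE 0.14, edgeR adjusted *P* = 0.493).

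**Figure D4:**
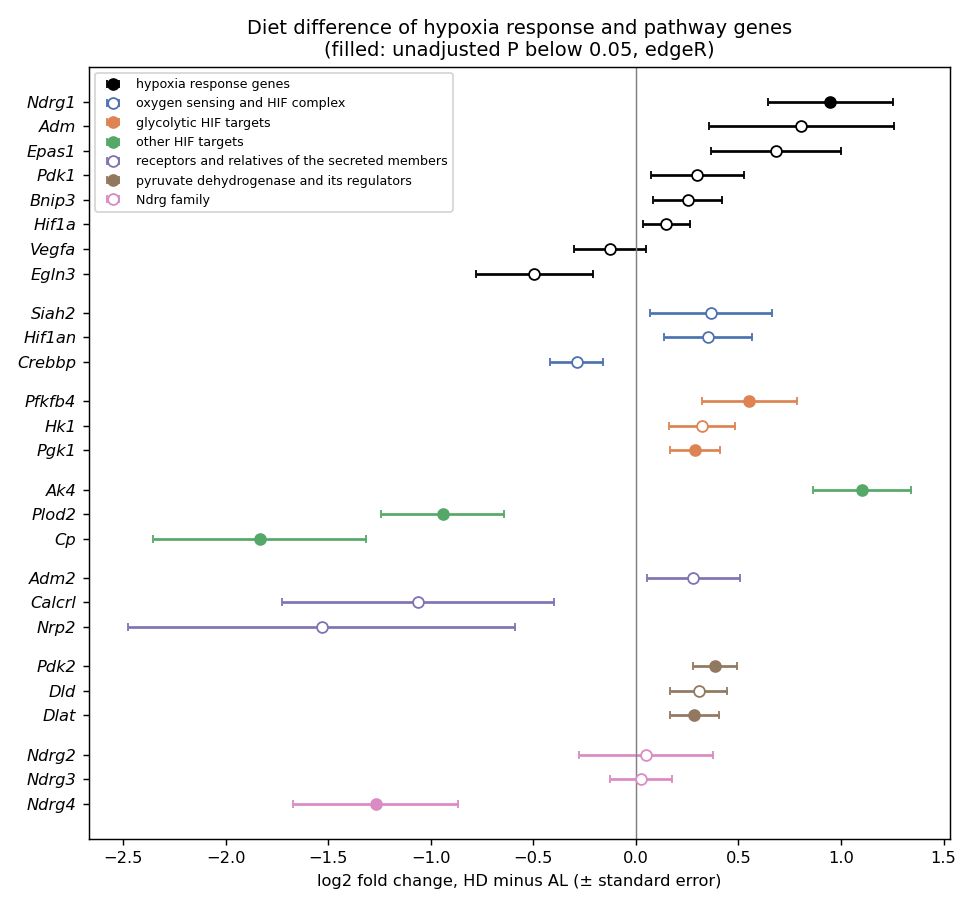
Log2 fold change (x axis, HD minus AL) with its standard error from edgeR for the 8 tested hypoxia response genes and the 3 genes with the smallest *P* values of each of 6 pathway lists. Filled points have an unadjusted *P* value below 0.05, and 0 of the genes shown have an adjusted one of at most 0.05. Ndrg1 at 0.95 is the only filled point among the first 8.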

How the data were processed

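Kidney RNA of 6 rats, 3 of the AL group and 3 of the HD group, was poly(A)-selected and sequenced single-end without strand information. The authors quantified transcripts with RSEM 1.1.15, per the labels, at default parameters on University of California Santa Cruz genes for rn5. They deposited estimated counts (expected counts, not normalized), posterior mean counts and TPM (corrected by RSEM for length and depth). Columns of FPKM and of intervals were not used. No exon of the 9 matched hypoxia response genes overlapped an exon of another gene in the files, and the pathway and marker genes were not checked for this.

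Estimated counts were summed per gene and rounded. Genes with at least 30 counts in at least 1 rat (11553) were tested with edgeR 4.0.16 in R 4.3.3 (quasi-likelihood test, TMM, diet as the only factor) and Benjamini-Hochberg adjustment over all of them. DESeq2, the package the study used, was run here in version 1.42.0 as an alternative. Standard errors are the log2 fold change divided by the square root of F. Exact permutation tests used log2(CPM + 0.5). The fits were checked on simulated data. Other alternatives were RLE factors, library size alone, other count minimums, a robust fit, posterior mean counts and leaving out each rat. The count totals ranged from 12499938 to 30466453, and intervals cover counting error only.

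The genes and lists were chosen with earlier results of these data known. Named are all 10 genes, and of each pathway list the 3 with the smallest *P* values. Markers are described by counts and sums. Separate rats are separate animals, and no batch is given in the labels. Plots were made with Python 3.11.15 and matplotlib 3.10.9.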

Additional observations from a re-analysis of the deposited data

How the results depend on the processing

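With 3 rats in each group, edgeR placed 0 of 11553 genes past the adjusted threshold, while 1224 had an unadjusted *P* value below 0.05. DESeq2 gave 182 genes, no minimum count gave 2, and leaving out a rat gave 0 to 4 (4 without rat 64 and 2 each without rats 61 and 67). The number of hypoxia response genes past the adjusted threshold was 0 under every alternative run. At an unadjusted *P* value below 0.05, 1 of the 8 genes was found. DESeq2 and no minimum count each gave 2 (Ndrg1 and Epas1), and leaving out a rat gave 0 (without rat 64 or rat 88) to 3 (Ndrg1, Egln3 and Bnip3, without rat 69), with 2 (Ndrg1 and Epas1) without rat 71 or rat 67. The count over all genes ranged from 605 to 1793 when a rat was left out (605 without rat 88 and 640 without rat 64), and that of the 11 pathway genes from 6 to 20. The number higher in the HD group (6 or 7 of 8) and the median log2 fold change (0.20 to 0.33) stayed within these ranges under every alternative run.

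The log2 fold change of Vegfa was 0.019 without rat 61 and 0.32 for transcripts with the upstream start alone. Ndrg2 was at -0.0187 and Ndrg3 at -0.0418 with library size alone. Leaving out rat 61 gave -0.04 for Ndrg2, leaving out rat 71 gave -0.05 for Ndrg3, and the values over the 6 rats ranged from -0.45 to 0.28 for Ndrg2 and from -0.11 to 0.12 for Ndrg3. For Vegfa they ranged from -0.26 to 0.02. Of the 91 tested pathway genes, 3 (Ak4, Cp and Pdk2) passed the adjusted threshold in DESeq2 alone, where 1.58% of all tested genes passed it. For the 26 genes named, 327 values under the other settings kept the direction and the side of the threshold, 7 turned and 3 passed it. The causes were not tested. No paired analysis was possible because no label ties a rat of 1 group to a rat of the other. The depth limits Epo, at 1 count or fewer.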

Other observations

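Apart from Ndrg1, 54 tested genes, or 0.467% of the others, had the same order of the 6 rats as Ndrg1, an order looked for after the values had been seen. Among the markers of 10 cell types and regions, 2 genes shared it, both of the proximal tubule. They were Slc34a1, a phosphate transporter, and Slc22a6, an organic anion transporter. Slc34a1 was at 2268, 1618 and 1366 CPM in rats 61, 71 and 88 of the AL group and at 3518, 2649 and 2389 CPM in rats 64, 67 and 69 of the HD group. Slc22a6 was at 300, 279 and 210 CPM in the same AL rats and at 739, 512 and 410 CPM in the same HD rats. The log2 fold change was 1.07 (standard error 0.24) for Slc22a6, 0.82 (standard error 0.18) for Slc13a3, a dicarboxylate transporter, and 0.70 (standard error 0.24) for Slc34a1, against 0.19 (standard error 0.16) for Lrp2, the endocytic receptor megalin, and -0.05 (standard error 0.14) for its partner Cubn.

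Of the red cell genes, Hba1, Hbb and Alas2 were all higher in the HD group, beside 51.3% higher among all tested genes. Their log2 fold changes were 0.72 (standard error 0.26), 0.56 (standard error 0.26) and 0.73 (standard error 0.36). Their adjusted *P* values from edgeR were 0.409, 0.504 and 0.528. Only Hba1 was below an unadjusted 0.05, or 33.3% of these genes against 10.6% of all tested genes. The summed level was 521, 833 and 598 CPM in rats 61, 71 and 88 of the AL group and 918, 1373 and 761 CPM in rats 64, 67 and 69 of the HD group, so that the groups overlapped through rats 71 and 69.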
